A study of Mus musculus with 6 samples.

Results

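The 10 genes described here belong to the p53 response and to the control of cell survival: Cdkn1a, Ccng1, Btg2, Mdm2, Trp53inp1, Gadd45a, Gadd45b, Gadd45g, Bax and Bcl2l1. They were taken by name from a table of 52550 gene rows, each member matching 1 row through its Ensembl identifier, and all 10 were among the 14656 genes tested. Expression was measured by RNA sequencing of hearts from C57BL/6 mice with the coronary artery tied at 8 weeks of age and the heart taken at 10 weeks, 2 weeks after infarction. There were 3 wild-type mice (WT) and 3 lncRNA-DRR-/- mice (KO), which lack a long noncoding RNA, and all 6 hearts were infarcted. The labels say neither how the deletion was made nor in which cells it acts, and no row of the table is tied by the labels to the deleted RNA, so that RNA gave no check of the labels.

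The transcription factor p53 is held low by MDM2, a ubiquitin ligase whose own gene p53 switches on. When DNA damage or another stress frees p53, it raises genes that stop the cell cycle (Cdkn1a, Ccng1, Btg2) or promote death (Bax). p53 also raises Gadd45a, of the GADD45 family, whose proteins assist repair and stress signalling. Bcl2l1 encodes BCL-XL, which opposes BAX at the mitochondrial outer membrane, and cardiomyocytes die by this route, among others, when a coronary artery is blocked. Several of these genes also answer to other inputs, such as hormones, cytokines and mechanical load.

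The gene that stood apart was Bcl2l1, at 2.2 times the WT mean in KO hearts, with all 3 KO hearts above all 3 WT hearts, yet just short of the threshold for a call. Btg2, Bax and Cdkn1a were also higher in every KO heart than in any WT heart, Gadd45a was lower in every KO heart, and the groups overlapped for the other 5 genes. No member passed the limma test (called where the adjusted p is under 0.05), which was passed by 0.375% of all genes tested, and 4 members (Bcl2l1, Btg2, Gadd45a, Bax) had an unadjusted p under 0.05, as had 8.48% of all genes. All KO hearts above all WT hearts was found for 4 of the 10 members and 5.29% of all genes, and all KO hearts below for 1 member and 7.5% of all genes. The median log2 difference was 0.25 over the members, 8 of them higher and 2 lower, against -0.00416 over all genes tested. The scaling between hearts holds the median over all genes near 0.

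Values are FPKM, in which fragments are divided by transcript length and by sequencing depth. Log2 differences are KO minus WT on the scale of log2(FPKM + 0.5), given ± SE with n = 3 hearts per genotype, and each ± beside an FPKM is an SD over 3 hearts. The depth was estimated at 5189000 to 9398000 fragments per heart, which puts about 31 to 8363 fragments behind each member's value in a heart. The cardiomyocyte genes Myh6 and Actc1 and the other 8 of 10 cardiomyocyte markers were present in every heart. KO replicate 3 differed from the other hearts in sex-linked genes, with Xist at 25.6 FPKM and Ddx3y at 0.028 FPKM against at most 0.0742 and at least 13.0 FPKM elsewhere. Read by these genes, KO replicate 3 was female and the other hearts male, so the sexes were mixed in the KO group only. The part of sex in the differences below was not tested. The clock-driven gene Dbp stood at 1.98 ± 0.299 FPKM in WT and 35.3 ± 6.09 in KO hearts, and Tsc22d3, a glucocorticoid-induced gene, at 13.1 ± 1.08 and 67.5 ± 13.5 FPKM (limma adjusted p = 0.000406 and 0.00265). The labels give no time of day, so harvest time and genotype cannot be told apart for any difference below. In whole hearts a change in cell numbers and a change in RNA per cell cannot be told apart either.

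**Figure D1:**
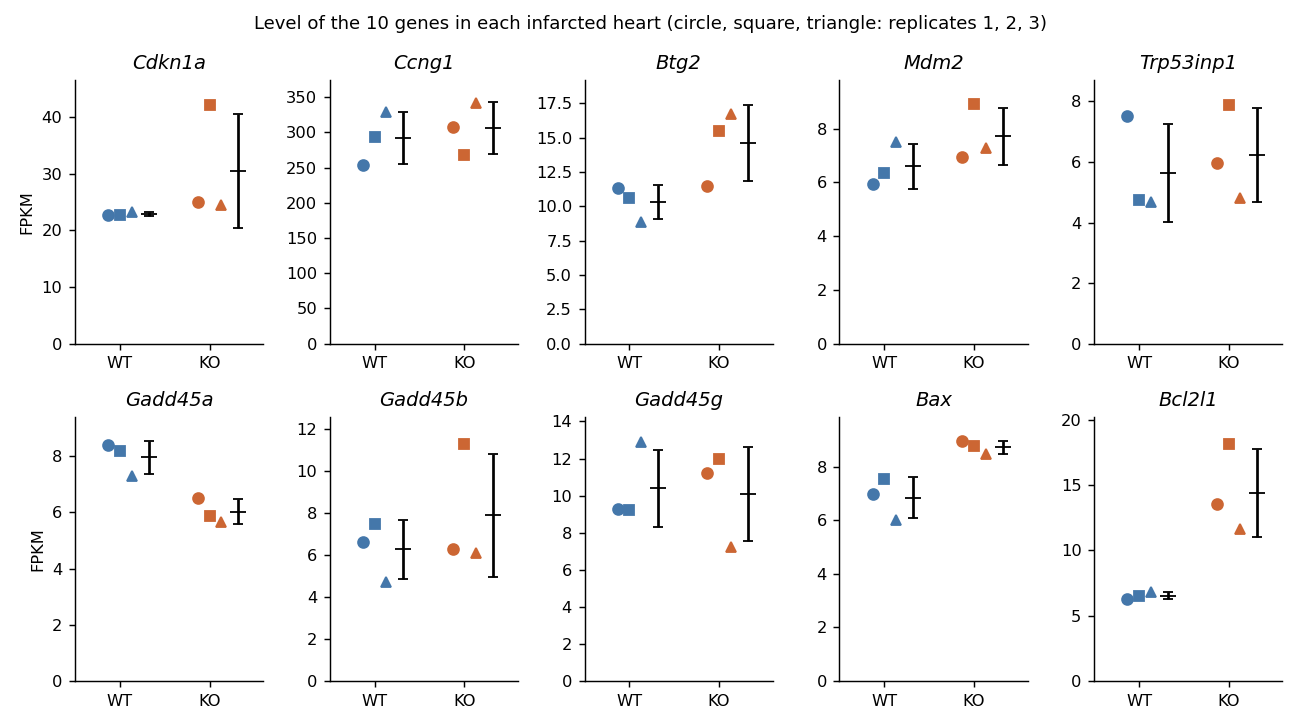
FPKM of each of the 10 genes (vertical axes, each starting at 0) in the 3 WT and 3 KO hearts, with the mean and SD of each genotype beside the points. Bcl2l1 lies at 6.29 to 6.84 FPKM in WT and 11.6 to 18.1 FPKM in KO hearts. Btg2, Cdkn1a and Bax also have no KO heart below a WT heart and Gadd45a has none above one, while the other 5 panels overlap.

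Bcl2l1 (chromosome 2, 152780668 to 152831728, minus strand, GRCm38) encodes the anti-apoptotic protein BCL-XL. It stood at 6.29, 6.46 and 6.84 FPKM in WT replicates 1 to 3 and at 13.5, 18.1 and 11.6 FPKM in KO replicates 1 to 3. The WT hearts lay close together, and the lowest KO heart was well above the highest WT heart. The log2 difference was 1.07 ± 0.16, with an unadjusted 95% interval from 0.70 to 1.44, and the limma adjusted p was 0.051, at rank 58 of the 14656 genes. With a single heart left out the difference stayed between 0.94 and 1.20 and the adjusted p between 0.0592 and 0.218. Without KO replicate 3 it was 1.20 (limma adjusted p = 0.0592) and without KO replicate 2, the highest heart, 0.94 (0.107). Scaling by the upper quartile, a filter at an FPKM of 1 or a robust fit put the limma adjusted p at 0.0458, 0.046 and 0.0435, under the threshold. The table does not separate transcripts, so the long and short forms of BCL-X, which act in opposite directions on cell death, were not distinguished among the 9 annotated transcripts.

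RefSeq lists 3 starts for Bcl2l1 in the build GRCm38.p6. The sequence before the most upstream of them is shown because Bcl2l1 is the member with the largest difference. The 250 bases below, from chr2:152831729-152831978 on the minus strand, lie outside annotated exons. They held none of the motifs searched on both strands: the E-box CACGTG, the cAMP element TGACGTCA and its core TGACG, the TATA box TATAAA, the D-box TTATGTAA or TTACGTAA, the glucocorticoid element core AGAACA, the serum response element, or the p53 decamer, which is 1 of the pair of 10-base units in a p53 binding site. There are accordingly no capitals in it.
Bcl2l1: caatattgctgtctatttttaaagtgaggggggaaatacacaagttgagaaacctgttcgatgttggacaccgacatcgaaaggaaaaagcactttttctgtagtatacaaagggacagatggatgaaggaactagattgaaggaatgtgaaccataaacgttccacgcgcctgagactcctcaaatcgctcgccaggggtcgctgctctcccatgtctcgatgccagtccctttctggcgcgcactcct

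Bax (chromosome 7, 45461697 to 45466898, minus strand) encodes a pore-forming protein of the mitochondrial outer membrane that BCL-XL restrains. Its level was 7.00, 7.53 and 6.01 FPKM in the WT hearts and 8.95, 8.79 and 8.46 in the KO hearts, so the KO hearts were tightly grouped above the WT hearts. The log2 difference was 0.35 ± 0.12 (95% interval 0.06 to 0.63, limma adjusted p = 0.466). The ratio of Bcl2l1 to Bax was 0.898, 0.858 and 1.14 in WT and 1.51, 2.06 and 1.37 in KO hearts, which did not overlap. Its mean was 0.965 ± 0.15 in WT and 1.65 ± 0.37 in KO hearts. It inherits the difference in Bcl2l1 and was given no test.

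Among 19 tested relatives in the BCL2 family 11 were higher and 8 lower, none was called, and the median log2 difference was 0.03. Mcl1, which encodes another survival protein, was 62.5 ± 3.45 FPKM in WT and 77.0 ± 6.86 in KO hearts without overlap (log2 difference 0.31 ± 0.11, limma adjusted p = 0.465). Bbc3, which encodes the death activator PUMA, was 3.60 ± 0.503 and 2.72 ± 0.172 FPKM, again without overlap (-0.33 ± 0.13, limma adjusted p = 0.536). Bcl2 itself was 2.74 ± 0.497 and 1.92 ± 0.578 FPKM with overlap (-0.43 ± 0.19, limma adjusted p = 0.60). Per length, Mcl1 was thus the most abundant of these 3 relatives in both genotypes.

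**Figure D2:**
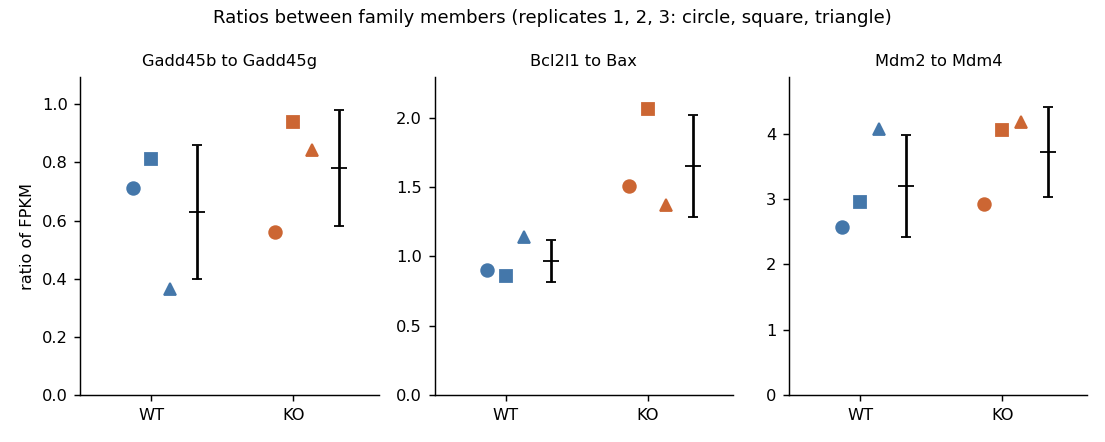
Ratio of the FPKM values of 2 genes in each heart (vertical axes, starting at 0), with mean and SD per genotype. The ratio of Bcl2l1 to Bax is 1.37 or more in each KO heart and 1.14 or less in each WT heart, whereas the other ratios overlap.

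Cdkn1a (chromosome 17, 29090976 to 29100727, plus strand) encodes p21, an inhibitor of cyclin-dependent kinases and the best known p53 target. It was 22.7, 22.7 and 23.3 FPKM in the WT hearts and 25.0, 42.1 and 24.5 FPKM in the KO hearts. KO replicates 1 and 3 lay just above the WT hearts and KO replicate 2 far above them. The log2 difference of 0.37 ± 0.19 (95% interval -0.07 to 0.81, limma adjusted p = 0.670) was 0.17 ± 0.12 without KO replicate 2 (limma adjusted p = 0.699).

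Btg2 (chromosome 1, 134075170 to 134079120, minus strand) encodes an antiproliferative protein that recruits the CCR4-NOT complex, which shortens the poly(A) tails of mRNAs. It stood at 11.3, 10.6 and 8.88 FPKM in WT and 11.5, 15.5 and 16.7 in KO hearts. KO replicate 1 was barely above the highest WT heart, and the other KO hearts were clearly higher. The log2 difference was 0.49 ± 0.15 (95% interval 0.13 to 0.84, limma adjusted p = 0.382), the largest among the members after Bcl2l1, and ran from 0.37 to 0.62 with a single heart left out.

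Ccng1 (chromosome 11, 40748552 to 40755311, minus strand) encodes cyclin G1, which recruits a phosphatase to MDM2. At 299 FPKM over all 6 hearts it was by far the most abundant member, Cdkn1a being next at 26.7 FPKM. Its levels were 253, 293 and 329 FPKM in WT and 308, 268 and 341 in KO hearts, which overlapped. The log2 difference was 0.08 ± 0.20 (95% interval -0.39 to 0.55, limma adjusted p = 0.952) and became -0.07 without WT replicate 1 and -0.02 without KO replicate 3.

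Mdm2 (chromosome 10, 117688875 to 117710758, minus strand), the feedback ligase, was 5.92, 6.34 and 7.51 FPKM in WT and 6.93, 8.93 and 7.26 in KO hearts. The groups overlapped, with a log2 difference of 0.22 ± 0.15 (95% interval -0.14 to 0.58, limma adjusted p = 0.782). It was 0.11 without WT replicate 1 and 0.35 without WT replicate 3. Mdm4, the relative of Mdm2 that also restrains p53, stood at 2.10 ± 0.235 and 2.10 ± 0.326 FPKM in WT and KO. Trp53inp1 (chromosome 4, 11156431 to 11174379, plus strand) encodes a stress protein that acts with p53 and in autophagy. It was 7.52, 4.76 and 4.67 FPKM in WT and 5.97, 7.88 and 4.82 in KO hearts, with 1 high heart in WT (replicate 1) and 1 in KO (replicate 2), and differed by 0.15 ± 0.20 (95% interval -0.31 to 0.60, limma adjusted p = 0.893). The Trp53inp1 difference was 0.02 without KO replicate 2, 0.06 or 0.07 without WT replicate 2 or 3, and 0.31 or 0.29 without WT replicate 1 or KO replicate 3.

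The GADD45 genes encode small nuclear proteins that bind the replication clamp PCNA and the kinase MAP3K4, which leads to p38 and JNK. Gadd45a (chromosome 6, 67035096 to 67037457, minus strand) is the classical p53 target of the family. It was 8.41, 8.18 and 7.29 FPKM in WT and 6.52, 5.88 and 5.65 in KO hearts, the 1 member at which each KO heart lay below each WT heart. Its log2 difference was -0.36 ± 0.12 (95% interval -0.65 to -0.08, limma adjusted p = 0.437) and ran from -0.45 to -0.31 with a single heart left out. A noncoding gene on the opposite strand, E230016M11Rik, overlaps Gadd45a and reached at most 0.843 FPKM; whether strand was used in counting is not given in the sources used here.

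Gadd45b (chromosome 10, 80930073 to 80932204, plus strand) was 6.62, 7.46 and 4.71 FPKM in WT and 6.27, 11.3 and 6.11 in KO hearts. KO replicate 2 was the 1 heart above the WT range, and the log2 difference of 0.29 ± 0.23 (95% interval -0.25 to 0.83, limma adjusted p = 0.815) was 0.06 ± 0.18 without that heart. Gadd45g (chromosome 13, 51846678 to 51848468, plus strand) was 9.30, 9.20 and 12.9 FPKM in WT and 11.2, 12.0 and 7.24 in KO hearts. It differed by -0.05 ± 0.23 (95% interval -0.58 to 0.48, limma adjusted p = 0.978), and by 0.14 or 0.15 without WT replicate 3 or KO replicate 3. The ratio of Gadd45b to Gadd45g ranged from 0.366 to 0.811 in WT and from 0.562 to 0.941 in KO hearts. Whether the 3 paralogues differ from each other in their response to the deletion was not tested.

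**Figure D3:**
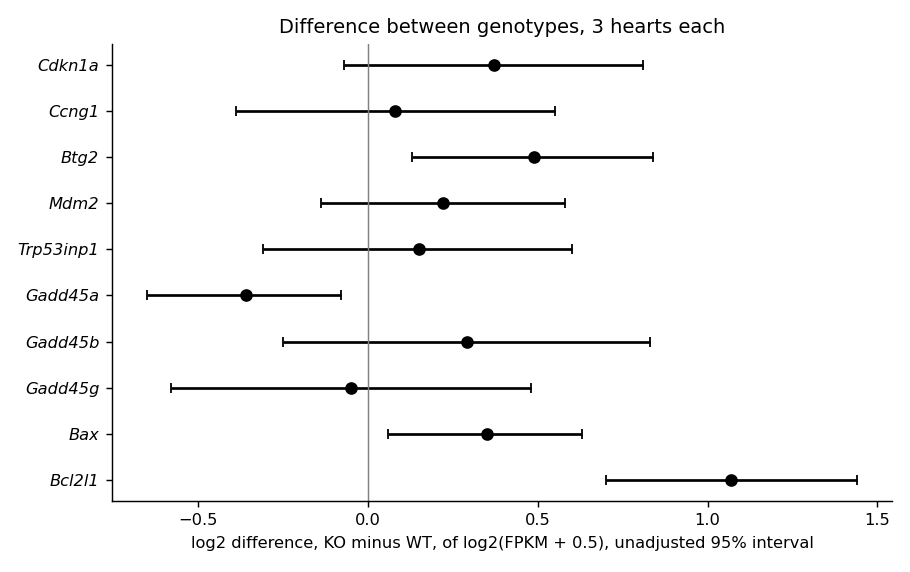
Log2 difference between KO and WT for each of the 10 genes (horizontal axis, log2 units) with its unadjusted 95% interval from limma, n = 3 hearts per genotype. The interval of Bcl2l1 runs from 0.70 to 1.44, those of Btg2, Bax and Gadd45a end near 0 and those of the other 6 genes include 0.

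Apart from Ccng1 and Cdkn1a the members were expressed at similar levels per length. The means over all 6 hearts were 12.4 FPKM for Btg2, 10.5 for Bcl2l1, 10.3 for Gadd45g, 7.79 for Bax, 7.15 for Mdm2, 7.07 for Gadd45b, 6.99 for Gadd45a and 5.94 for Trp53inp1. In WT hearts alone Btg2 (10.3 ± 1.26 FPKM) and Gadd45g (10.4 ± 2.08) lay within each other's SD. Bax, Mdm2, Bcl2l1 and Gadd45b lay between 6.26 and 6.85 FPKM there, a span smaller than the SDs of Bax, Mdm2 and Gadd45b. Bcl2l1 therefore ranked beside Bax and Mdm2 in WT hearts and at the level of Btg2 (14.4 ± 3.35 against 14.6 ± 2.76 FPKM) in KO hearts.

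KO replicate 2 was the highest of the 6 hearts for 5 of the 10 members: Cdkn1a, Mdm2, Gadd45b, Trp53inp1 and Bcl2l1. Over all genes tested it was the highest of the 6 hearts for 28.5%. Relative to the WT mean on the log2 scale, the median over all genes was 0 in each heart, near which the scaling holds it. The median of the members was 0.18 and 0.16 in KO replicates 1 and 3 and 0.37 in KO replicate 2. The same heart had the lowest sum of the 10 cardiomyocyte markers (8526 FPKM against 9917 to 12020 FPKM in the other 5) and the highest sum of the 8 fibroblast markers (2375 against 1027 to 2058 FPKM), with no marker of either list at 0 in any heart. WT replicate 1 had the next highest fibroblast sum of 2058 FPKM. Its levels were 22.7 FPKM for Cdkn1a, 5.92 for Mdm2, 6.62 for Gadd45b, 7.52 for Trp53inp1 and 6.29 for Bcl2l1. Those of Mdm2 and Bcl2l1 were the lowest of all hearts, whereas that of Trp53inp1 was the highest after KO replicate 2. The part of cell composition in the values of KO replicate 2 was not tested.

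**Figure D4:**
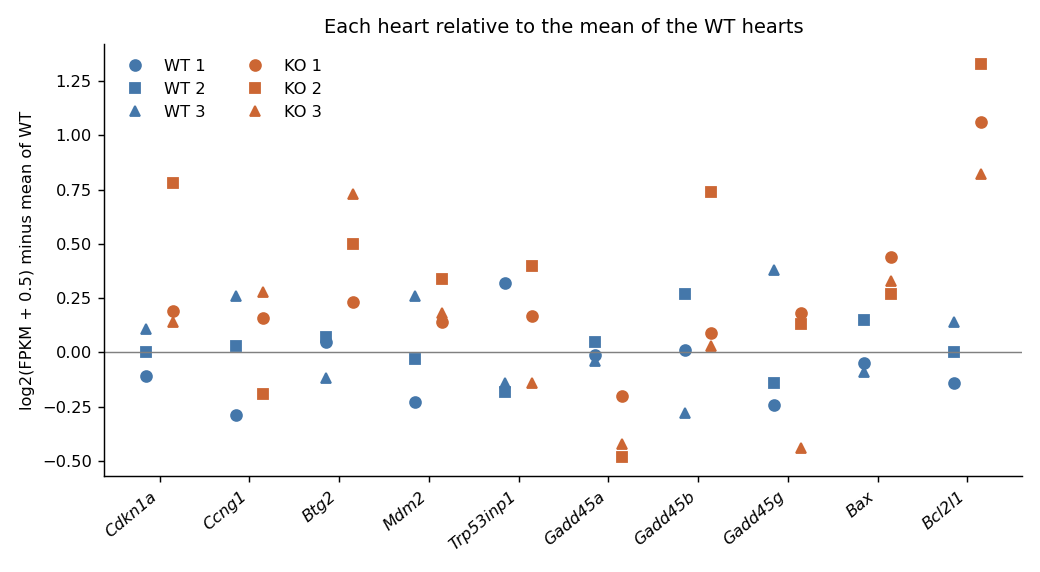
Level of each gene in each heart on the scale of log2(FPKM + 0.5) after scaling, minus the mean of the WT hearts (vertical axis). KO replicate 2 (squares) lies above every other heart for Cdkn1a at 0.78, Gadd45b at 0.74 and Bcl2l1 at 1.33, and for Mdm2 and Trp53inp1 by less; it is the lowest KO heart for Ccng1 at -0.19, and for Gadd45a and Bax.

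Summed neutrophil, T cell and B cell markers were lower in each KO heart than in each WT heart, but of the leucocyte markers tested 1 was called, the calprotectin gene S100a8 (-1.24 ± 0.18, limma adjusted p = 0.0467), a call that ended whichever heart was left out (0.0616 to 0.192). The 7 neutrophil markers summed to 50.8 to 74.9 FPKM in WT and 20.5 to 34.8 FPKM in KO hearts, with all 6 tested markers lower; Ly6g was listed at 0 in WT replicate 3 and KO replicate 3. The 8 T cell markers summed to 6.04 to 10.7 and 2.42 to 3.85 FPKM, with all 4 tested markers lower. Of these, Trbc2 and Lck reached the filter at an FPKM of 0.5 in the WT hearts only, so their direction follows from the filter. Trbc2, Cd3d and Cd8a each had a 0 in at least 1 heart. The 6 B cell markers summed to 23.7 to 85.7 and 10.4 to 20.7 FPKM, with Ms4a1 listed at 0 in KO replicate 1 and all 4 tested markers lower. Of the 9 macrophage markers 8 were lower, with overlapping sums (762 to 1334 and 728 to 993 FPKM) and none at 0. Of the fibroblast markers 7 of 8 were higher and of the cardiomyocyte markers 10 of 10 lower, also with overlapping sums. Endothelial, mural and proliferation markers (7, 7 and 8 genes) had overlapping sums as well. Of 6 clock genes 5 were higher and 1 lower, with 4 called up and 1 down (median log2 difference 2.1), against 0.375% called over all genes. Of 6 glucocorticoid-induced genes 5 were higher and 1 lower, with 4 called up (median 1.53), among them Per1, which is also in the clock list. All 7 tested immediate early genes were higher, with 1 called (Nr4a1) and a median of 0.45. In 3 of them all KO hearts lay above all WT hearts, as in 5.29% of all genes. Calls ended with some single hearts left out for Per1 (without KO replicate 1), Mt2 (without WT replicate 2 or 3 or KO replicate 1), Sgk1 (without any heart but KO replicate 3) and Nr4a1 (without any heart but WT replicate 3). The part of these shifts in the values of Bcl2l1, Btg2, Bax, Cdkn1a and Gadd45a was not tested, nor was that of the clock, glucocorticoid-induced and immediate early genes.

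For the wider pathway 132 further genes were followed, of which 123 were tested, 72 of them higher and 51 lower, with a median log2 difference of 0.05. Of these 1 was called, Tob2, and 9 had an unadjusted p under 0.05, against 0.375% and 8.48% of all genes. Tob2, which like Btg2 encodes an antiproliferative adaptor of the CCR4-NOT complex, rose from 7.87, 8.38 and 8.20 FPKM in WT to 17.5, 22.0 and 21 FPKM in KO hearts. The log2 difference was 1.26 ± 0.12 (limma adjusted p = 0.0118). The limma adjusted p lay between 0.0377 and 0.0671 with a single heart left out and missed the threshold without WT replicate 2 or KO replicate 1. In the list of BTG, TOB and CCR4-NOT genes 5 of 11 tested were higher and 6 lower (median 0.00), and Btg1, the closest relative of Btg2, averaged 8.14 ± 2.43 FPKM over the WT and 5.65 ± 0.351 FPKM over the KO hearts (-0.44 ± 0.20, limma adjusted p = 0.634). The Btg1 difference ran from -0.62 to -0.23 with a single heart left out. The subunit gene Cnot1 differed by -0.12 ± 0.11 (limma adjusted p = 0.839).

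Other p53 targets were split between higher and lower. Of 37 tested, 18 were higher and 19 lower, none was called, and the median log2 difference was -0.02. An unadjusted limma p under 0.05 was found for 5 of them and for 8.48% of all genes. Ddit4, which encodes an inhibitor of mTORC1 that glucocorticoids and hypoxia also induce, stood at 16.0, 17.5 and 10.7 FPKM in WT and 54.8, 60.7 and 29.9 in KO hearts. This was the largest difference in the list (1.66 ± 0.27, limma adjusted p = 0.073), and it was called without KO replicate 3 (0.0319). The polo-like kinase genes Plk3 and Plk2 differed in opposite directions, by 0.75 ± 0.18 and -0.46 ± 0.12, each without overlap of the groups (limma adjusted p = 0.238 and 0.265). Among 15 tested regulators of p53 8 were higher and 7 lower, none was called, and none had an unadjusted p under 0.05. Trp53, the gene of p53 itself, was 8.75, 7.24 and 7.51 FPKM in WT and 6.33, 8.11 and 5.26 in KO hearts, which overlapped (-0.24 ± 0.15, limma adjusted p = 0.740). Cdkn2a, whose ARF product inhibits MDM2, was low, at 0.477 ± 0.027 and 0.696 ± 0.15 FPKM (0.29 ± 0.20, limma adjusted p = 0.773). It reached the filter at an FPKM of 0.5 in the KO hearts only, so its place among the higher genes follows from the filter. Trp53bp1 differed by -0.22 ± 0.15 (limma adjusted p = 0.783). With a single heart left out Trp53 ran from -0.35 to -0.12 and Trp53bp1 from -0.28 to -0.11.

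Beside p21, the genes listed as cyclin-dependent kinase inhibitors showed small differences. All 7 tested cyclin-dependent kinase inhibitor genes were higher, none called and none with an unadjusted p under 0.05, with a median of 0.21. For Cdkn2a, which reached the filter at an FPKM of 0.5 in the KO hearts only, this direction follows from the filter. Cdkn1c led at 0.34 ± 0.21 and Cdkn2c followed at 0.32 ± 0.22 (limma adjusted p = 0.757 and 0.773). With a single heart left out Cdkn1c ran from 0.19 (without WT replicate 2 or KO replicate 1) to 0.51 (without KO replicate 3), and Cdkn2c from 0.11 (without KO replicate 3) to 0.47 (without KO replicate 2). Of the 14 partners of GADD45 proteins 11 were higher and 3 lower, none called (median 0.07). Map2k3, a kinase gene upstream of p38, differed by 0.32 ± 0.16, the mitotic kinase gene Cdk1 by 0.35 ± 0.18 and the demethylation enzyme gene Tet2 by 0.17 ± 0.15 (limma adjusted p = 0.667, 0.675 and 0.833). Of 22 caspase, adaptor and inhibitor genes of cell death 12 were higher and 10 lower, none called (median 0.04). The inhibitor genes Birc2 and Xiap differed in opposite directions, by -0.35 ± 0.13 and 0.25 ± 0.11 (limma adjusted p = 0.507 and 0.581), and the inflammatory caspase gene Casp1 by -0.37 ± 0.16 (0.603). Ccng2, the relative of Ccng1, differed by -0.14 ± 0.18, the cyclin G-associated kinase gene Gak by 0.08 ± 0.12 and Trp53inp2, that of Trp53inp1, by 0.24 ± 0.15 (limma adjusted p = 0.892, 0.909 and 0.735). With a single heart left out Map2k3 ran from 0.21 to 0.45, Tet2 from 0.08 to 0.22, Ccng2 from -0.33 to 0.00, Gak from 0.01 to 0.17 and Trp53inp2 from 0.11 to 0.33.

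**Figure D5:**
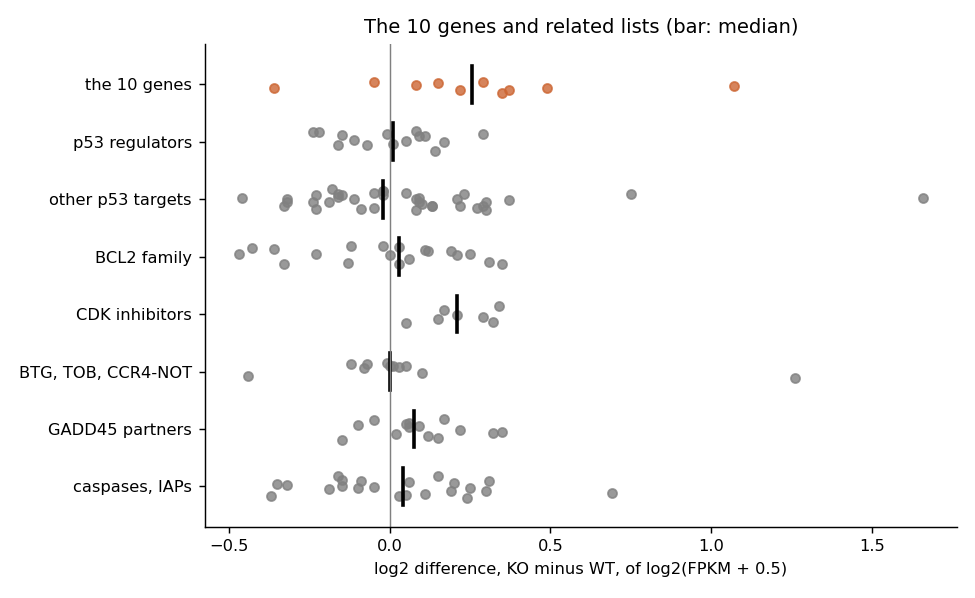
Log2 difference between KO and WT (horizontal axis) of the 10 genes and of the tested genes in 7 related lists, without the members; each point is a gene, placed at random heights within its row, and bars mark medians. Bcl2l1 at 1.07, Tob2 at 1.26 and Ddit4 at 1.66 lie to the right of the bulk, and the medians of the 7 lists lie between -0.02 and 0.21.

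The protein-coding genes with a pattern most like that of Bcl2l1 were Klf9, S1pr1 and Mt1, by the mean absolute difference between centred log2 levels over the 6 hearts (0.081, 0.081 and 0.083). Klf9, a Krüppel-like factor gene, was 34.6 ± 1.45 FPKM in WT and 67.6 ± 8.81 in KO hearts (limma adjusted p = 0.0349), a call that ended without any single heart (0.068 to 0.184). S1pr1, a sphingosine-1-phosphate receptor gene, was 37.2 ± 0.776 and 76.6 ± 9.0 FPKM (limma adjusted p = 0.0202), and its call ended without any heart except KO replicate 3 (up to 0.144). The metallothionein gene Mt1 was 63.5 ± 7.79 and 141 ± 26.1 FPKM and was not called (limma adjusted p = 0.0655). Each had KO replicate 2 as its highest heart and KO replicate 3 as the lowest KO heart, as Bcl2l1 had. They were chosen for their closeness to Bcl2l1 in these same hearts, so this shared order is no separate result. For Btg2 the nearest genes were Map3k6, Scyl3 and Pxdc1 (0.049, 0.058 and 0.070), with log2 differences of 0.51, 0.49 and 0.36 and none called (limma adjusted p = 0.392, 0.398 and 0.552).

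For 9 of the 10 members the RefSeq promoter table held at least 1 start (12 starts in all); Trp53inp1 was the member without one. The 250 bases before each start were searched for the motifs named above. The p53 decamer was found for 5 members (Cdkn1a, Ccng1, Mdm2, Gadd45a and Bax) and in 7.13% of all 32851 promoters. Each match is printed with its surroundings, 30 bases in all, 5′ to 3′ on the strand of the gene and with the decamer in capitals, to set these p53 targets beside their values in the hearts. Positions count back from the base before the start. The stretches lie at chr17:29090896-29090925 and chr17:29090918-29090947 on the plus strand for Cdkn1a (decamers from 73 to 64 and from 51 to 42 bases before the more upstream of its 2 starts), chr11:40755452-40755481 for Ccng1 (185 to 176), chr10:117710925-117710954 for Mdm2 (186 to 177), chr6:67037428-67037457 for Gadd45a (40 to 31, in an exon of another Gadd45a transcript) and chr7:45467080-45467109 for Bax (201 to 192), the last 4 on the minus strand.
Cdkn1a, distal: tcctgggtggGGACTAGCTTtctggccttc
Cdkn1a, proximal: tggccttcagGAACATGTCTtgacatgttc
Ccng1: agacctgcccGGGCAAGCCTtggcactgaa
Mdm2: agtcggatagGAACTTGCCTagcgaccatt
Gadd45a: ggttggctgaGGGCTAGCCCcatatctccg
Bax: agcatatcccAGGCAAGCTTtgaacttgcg

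The members with a decamer in this window included Bax and Cdkn1a, higher in each KO heart, Gadd45a, lower in each KO heart, and Ccng1 and Mdm2, whose groups overlapped. The E-box was found before Bax, Gadd45b and Gadd45g and in 6.02% of all promoters, the TATA box before Gadd45b and Gadd45g and in 12.4%. The D-box (0.931% of all promoters), the glucocorticoid element core (16.1%) and the serum response element (1.47%) were found before no member. The cAMP element TGACGTCA, which contains its core TGACG on both strands, was found before Btg2 alone among the members and in 1.55% of all promoters, its core in 17.8%. It is shown in capitals in the 30 bases at chr1:134079303-134079332 on the minus strand (motif from 166 to 159 bases before the start).
Btg2: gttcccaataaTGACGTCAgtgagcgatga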

How the data were processed

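The authors deposited 1 table of FPKM per gene for 6 hearts; it is titled as counts, but each column holds 37.2% to 40.4% fractional values. The submitters' processing notes name Bowtie 0.12.2, mm8 and mm9 without their roles; how FPKM were computed, and on which annotation, is not given in the sources used here. Samples were grouped by the genotype in their titles. Symbols and positions came from GENCODE M21 (GRCm38) by Ensembl identifier without version (52403 of 52550 rows matched); no coordinate was converted. Depth was estimated from the most frequent product of FPKM and length in single-transcript genes.

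Genes at an FPKM of at least 0.5 in 3 libraries were kept, scaled by trimmed means of log2 ratios (trims 0.3 and 0.05, factors 0.949 to 1.07) and tested on the scaled log2(FPKM + 0.5) values by limma 3.58.1 (R 4.3.3; genotype only, mean-variance trend, two-sided). P-values were adjusted by Benjamini-Hochberg over all 14656 genes, of which 55 were called at 0.05 (40 up, 15 down). The scale understates differences of low genes. Nothing in the labels gives litter or batch. The p-values set the genotype difference against the spread between these hearts, moderated over all genes, and take the hearts as independent. Members and lists were chosen with earlier results of these data known. Named beside the members were the 3 genes of smallest p in each list, called genes, Trp53, Mdm4, the 3 genes nearest in pattern to the 2 members of smallest p, Dbp and Tsc22d3; S100a8, Per1, Mt2, Sgk1, Nr4a1 and marker genes at 0 were named after their values were seen. Promoter sequences are from RefSeq, GRCm38.p6.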

Additional observations from a re-analysis of the deposited data

How the results depend on the processing

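The count of called members, 0 with all settings as described, became 1 (Bcl2l1) with upper-quartile scaling, a filter at an FPKM of 1 or a robust fit. It stayed 0 with median-of-ratios scaling, no scaling, no filter, pseudocounts of 0.1 or 1, no trend, the replicate block and each heart left out. The count over all genes, 55, was 20 without a filter and between 12 and 36 with a heart left out; the cause was not tested. Over the 10 members and 16 settings, 153 of 160 differences kept their direction and side of the threshold, 3 passed it (Bcl2l1) and 4 changed sign (Ccng1 and Gadd45g, each in 2 settings with a heart left out). Replicate numbers are shared between genotypes, but same-numbered hearts deviated together with r = 0.01, -0.04 and 0.18 across genes, so they were not taken as paired; with the replicate block Bcl2l1 differed by 1.07 (limma adjusted p = 0.0992), 42 genes were called, Klf9 and S1pr1 were not, and Ddit4 was (0.027). Depth is only estimated, so no counting interval was given.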
